A study of Mus musculus with 2 samples.

Results

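The genes described here encode the hormones of the anterior pituitary (Gh, Prl, Pomc, Cga, Tshb, Lhb and Fshb), the lineage transcription factor Pou1f1 and the receptor Ghrhr, measured in RNA labelled as embryonic cerebral cortex of a wild-type and a Sox11-null embryo. They were chosen by name, with the differences of Gh, Pomc and Cga on these arrays already known, and every probe set that the platform annotation assigns to exactly 1 of them was taken. This gave 12 probe sets of 8 genes, out of 18193 genes on the array. Pou1f1 was matched to no probe set and has no value here. The 8 genes lie on 8 different chromosomes, and that of Pomc, chromosome 12, also carries Sox11. Any bearing of this on the Pomc values was not tested.

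The study compared 1 Sox11(+/+) embryo with 1 Sox11(-/-) littermate, both at E17.5 (a day of gestation shortly before birth). Their genetic background was C57BL/6 and 129, and each came from a cross of Sox11(+/-) parents. Sox11 encodes a SoxC transcription factor of immature neurons and other developing tissues, and the null embryo carries that genotype in every tissue, not in the cortex alone. Per the labels, RNA of the dissected cortex of each embryo was used, and it was hybridised to 1 Affymetrix expression array, which reports 1 signal intensity per probe set. With 1 array per genotype there is no replicate, no test and no p-value, and each difference is between these 2 libraries.

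The anterior pituitary grows from oral ectoderm below the brain, not from neural tissue. Its hormone cells are named for their products. Somatotrophs make growth hormone (Gh) and lactotrophs prolactin (Prl). Corticotrophs and melanotrophs make pro-opiomelanocortin (Pomc), the precursor of ACTH and melanotropins, which some hypothalamic neurons also make. Thyrotrophs and gonadotrophs make glycoprotein hormones, each a dimer of the shared alpha subunit (Cga) with a beta subunit of its own (Tshb, Lhb or Fshb). Pou1f1 is required for somatotrophs, lactotrophs and thyrotrophs, and Ghrhr, the receptor for growth hormone-releasing hormone, is found on somatotrophs.

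Several measures of the whole libraries bear on these values. Sox11 by its brightest probe set was at 6582 on the wild-type array and 3149 on the null array, and all 6 Sox11 probe sets were lower in the null library. The brightest kept 47.8% of its wild-type signal. Which of them fall inside the deletion is unknown here, so they may not check the genotype. Xist, the RNA of the inactive X chromosome, had signals of 17505 (wild type) and 155 (null), and the Y-linked gene Uty gave 21.8 and 617, so the genotype and the sex of the embryo cannot be told apart. The beta-actin control probe sets at both ends of the transcript, a measure of RNA integrity, had a 3' to 5' ratio of 1.78 for wild type against 1.16 for the null library, and that of Gapdh was 0.922 against 0.816. The cortical neuron genes Neurod6 (3019 and 2723) and Bcl11b (2394 and 2204) had signal in both libraries. Genes of skeletal muscle, glands and epidermis had high signals in both as well (such as Acta1 at 23182 and 23519), which goes against a sample of cortex alone. A gene is called measured below when its signal reached the array's median over all probe sets (178 in wild type, 177 in the null library) on at least 1 array, which held for 12390 genes.

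Of the 7 hormone genes, Gh, Pomc and Cga were measured, and each gave less than 50% of its wild-type signal in the null library. The remaining hormone genes and Ghrhr were below the median of both arrays, and none of them gave a difference that can be read as a change. For comparison, 0.985% of the 12390 measured genes passed 2-fold on the lower side in the null library and 3.24% passed 1.5-fold. All 7 measured probe sets of Gh, Pomc and Cga were at least 2-fold lower. Because the genes were listed with this contrast known, that count describes them and supports nothing. The same holds for the ranks of Gh, Pomc and Cga given below, and for their place against genes of similar level.

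**Figure D1:**
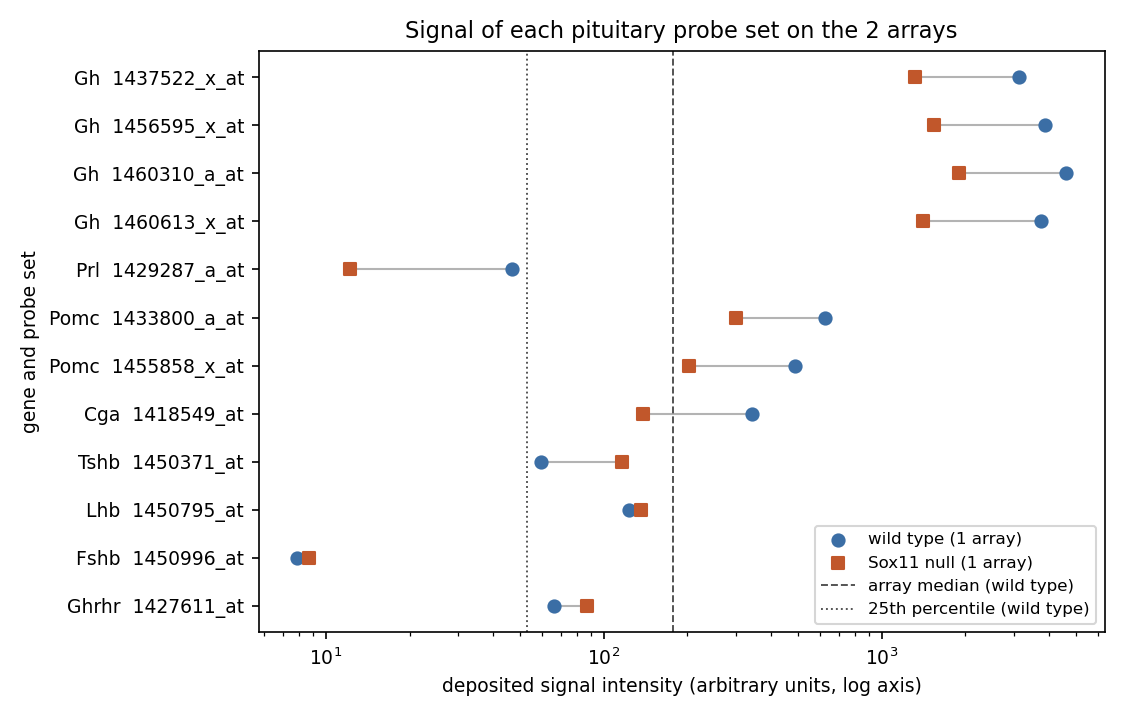
Signal of each of the 12 probe sets on the wild-type array (circles) and the Sox11-null array (squares), on a log axis in arbitrary intensity units, with the wild-type array's median (dashed) and 25th percentile (dotted). The 4 Gh, 2 Pomc and 1 Cga probe sets have the square to the left of the circle, as has the dim Prl probe set, and the dimmer probe sets of Tshb, Lhb, Fshb and Ghrhr have it to the right.

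Growth hormone, which drives body growth after birth, had signals far above the array median. Probe set 1460310_a_at went from 4615 on the wild-type array to 1894 on the null array, so that 41.0% of the signal remained. Probe set 1456595_x_at gave 3872 and 1537 (39.7%), 1460613_x_at gave 3754 and 1405 (37.4%), and 1437522_x_at gave 3120 and 1322 (42.4%). The 4 probe sets thus lay close together in the share that remained. In log2 terms the differences, null minus wild type after centring, ran from -1.40 to -1.22, with a mean of -1.30 ± 0.077 (SD, n = 4 probe sets hybridised to the same RNA, which is no error between embryos). Among probe sets of the same gene over 5155 genes the pooled SD was 0.40, over all measured levels and not matched to the brightness of Gh. The Gh probe sets differed less from each other than this general SD. They all report on 1 transcript and may share probes. In wild type the brightest Gh probe set was at percentile 97.2 of its array, and in the null library at percentile 92.2. For the 500 genes nearest to it in mean level the central 95% of log2 differences ran from -0.40 to 0.44. A difference as low as that of Gh or lower was found for 72 measured genes (0.581%).

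Prolactin, the milk hormone and the other product of the Pou1f1-dependent somatolactotroph branch, had next to no signal. Its probe set 1429287_a_at was at 46.8 (wild type) and 12.2 (null), below the 25th percentile of both arrays (52.9 and 52.5). No fold is given for it. For the 500 genes nearest in level the central 95% of log2 differences ran from -2.97 to 2.83, which shows how little such dim signals can resolve. The placental relatives of prolactin behaved as dim probe sets too. None of the 17 family members with a probe set was measured, and 15 were below the 25th percentile on both arrays. Gh and Prl therefore cannot be compared in these libraries.

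With probe set 1433800_a_at, Pomc had a signal of 627 in wild type against 299 in the null library, so that 47.8% remained (log2 difference -1.05). Its other probe set, 1455858_x_at, gave 487 and 203 (41.7%, -1.24). Both were lower in the null library, with a mean log2 difference of -1.14 ± 0.14 (SD, n = 2 probe sets, again on shared RNA). The 500 genes nearest to the brighter probe set in level had a central 95% of -0.62 to 0.61, and 108 measured genes (0.872%) were as low as the brighter Pomc probe set or lower. The difference of Pomc and that of Gh, each by its brightest probe set, were 0.22 apart on the log2 scale. This was less than the pooled SD between probe sets of a gene, which was not matched to their levels.

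The only Cga probe set, 1418549_at, was at 342 on the wild-type and 138 on the null array, with 40.4% of the signal remaining. It was above the median of the wild-type array and below that of the null array, at percentiles 64.0 and 44.7. The log2 difference was -1.29, and 64 measured genes (0.517%) were as low or lower. The 500 genes nearest in level had a central 95% of -0.78 to 0.75. Cga and Gh differed by 0.022 in their log2 differences. In bulk RNA of this kind, fewer hormone cells in the sample and less hormone RNA per cell cannot be told apart.

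The beta subunits that pair with Cga had other values. Tshb, the beta subunit of thyroid-stimulating hormone, was at 59.3 in the wild-type and 116 in the null library (1450371_at), a log2 difference of 0.99 in the opposite direction to Cga. Genes near it in level had a central 95% from -1.49 to 1.44, and the difference of Tshb lay inside that range. Lhb, of luteinising hormone, gave 123 and 136 (1450795_at, 0.17, with a central 95% from -0.94 to 0.96 at its level). Fshb, of follicle-stimulating hormone, gave 7.88 and 8.69 (1450996_at), below the 25th percentile of both arrays. None of the 3 beta subunits reached the median of either array, and the 2-fold lower signal of the shared alpha subunit had no counterpart among them that could be measured. With 1 array per genotype the difference between Cga and its partners was not tested. The glycoprotein relative Gpha2, which pairs with another beta subunit, gave 162 and 196 (0.29).

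Ghrhr, the receptor through which the hypothalamus drives Gh release, was at 66.4 in the wild-type and 86.8 in the null library (1427611_at). Both values were below the array medians, at percentiles 29.1 and 34.7. The log2 difference of 0.41 lay inside the central 95% of genes at that level, from -1.52 to 1.29. Ghrhr thus did not show the lower signal of Gh, but at this level a lower signal of the size of Gh's would itself have lain inside that range. Ghrh, named here as the ligand of Ghrhr, gave 69.2 and 16.3 and was not measured either.

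**Figure D2:**
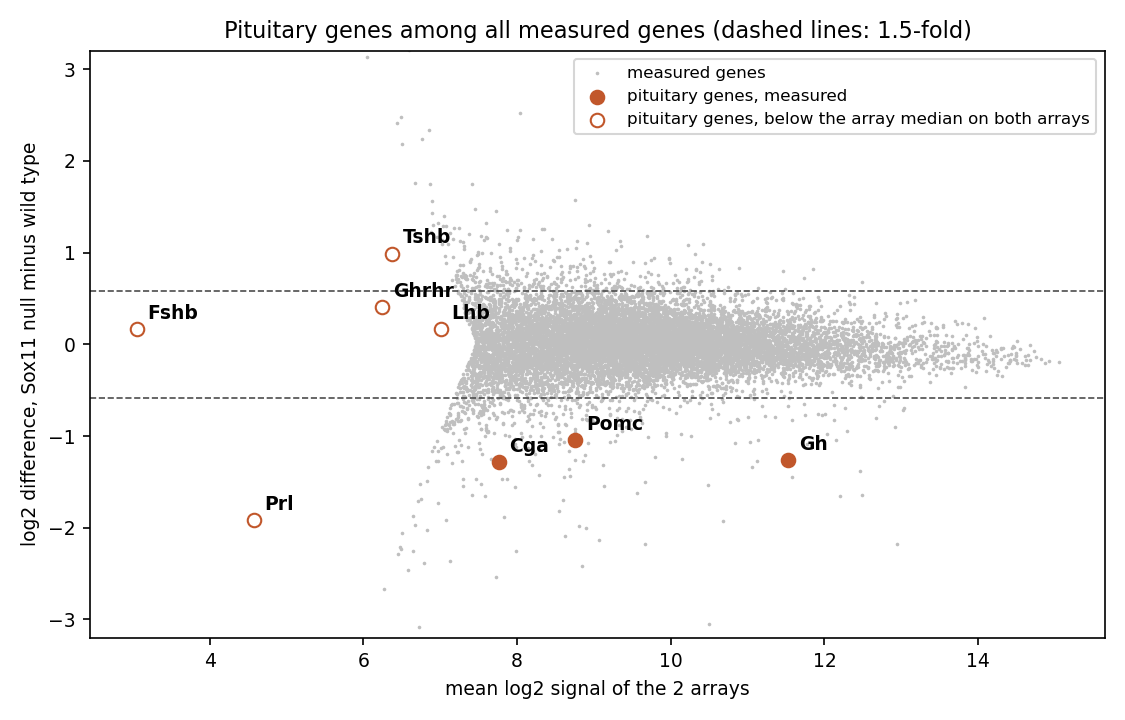
Log2 difference (Sox11 null minus wild type) against mean log2 signal of the 2 arrays for the 12390 measured genes (grey, of which 10 lie outside the plotted range) and the 8 pituitary genes by their brightest probe set. Gh, Pomc and Cga (filled) lie below the lower 1.5-fold line, and the open circles mark the 5 genes below the median of both arrays.

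The median log2 difference was -1.26 over the 3 measured genes, against 0 over all measured genes, to which the arrays were centred. Without filter and floor it was -0.44 over all 8 genes with a probe set, against -0.0017 over all genes. That value also uses Prl and Fshb, which were below the 25th percentile of both arrays and are too dim to read. The first median holds only genes that passed the filter on at least 1 array, and Cga passed it through the wild-type array alone.

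Promoter sequence is shown for the lower genes Pomc and Cga and, for comparison, for Prl and Tshb, whose signals were too dim to compare. The sequences are the 250 bases before the start site in RefSeq's annotation of GRCm38.p6, which has entries for 7 of the 9 genes, not for Gh and Ghrhr. They are written 5′ to 3′ on the gene's strand. Capitals mark matches on either strand to the TATA box TATAAA, the POU1F1 motif TATNCAT, the PITX and OTX motif TAATCC and the NR5A1 motif AAGGTCA.
Pomc, chr12:3954695-3954944, plus strand: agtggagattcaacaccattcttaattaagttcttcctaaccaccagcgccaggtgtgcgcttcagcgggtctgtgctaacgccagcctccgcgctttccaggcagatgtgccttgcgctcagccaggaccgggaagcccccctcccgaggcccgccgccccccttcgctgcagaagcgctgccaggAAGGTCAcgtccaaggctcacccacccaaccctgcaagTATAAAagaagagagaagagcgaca
Cga, chr4:34893529-34893778, plus strand: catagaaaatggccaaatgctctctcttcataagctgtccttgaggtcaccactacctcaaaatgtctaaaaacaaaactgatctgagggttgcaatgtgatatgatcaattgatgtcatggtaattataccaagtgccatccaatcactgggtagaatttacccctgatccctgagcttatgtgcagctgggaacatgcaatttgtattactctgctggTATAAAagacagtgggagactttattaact
Prl, chr13:27057320-27057569, plus strand: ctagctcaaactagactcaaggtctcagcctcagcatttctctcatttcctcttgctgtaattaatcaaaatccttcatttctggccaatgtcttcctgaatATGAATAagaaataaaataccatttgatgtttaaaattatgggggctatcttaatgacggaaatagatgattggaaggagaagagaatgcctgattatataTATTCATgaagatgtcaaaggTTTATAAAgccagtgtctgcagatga
Tshb, chr3:102782715-102782964, minus strand: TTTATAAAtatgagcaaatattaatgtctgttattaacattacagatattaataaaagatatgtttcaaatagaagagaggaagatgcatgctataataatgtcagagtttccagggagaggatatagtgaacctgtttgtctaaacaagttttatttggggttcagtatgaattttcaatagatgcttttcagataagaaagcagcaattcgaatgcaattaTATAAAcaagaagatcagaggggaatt

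The POU1F1 motif matched in Prl at 148 to 142 and at 47 to 41 bases before the start, and in none of the windows of Pomc, Cga, Tshb, Lhb and Fshb. Pou1f1 itself had a match at 57 to 51 bases before its upstream start, overlapping a TATAAA match. Of 32851 promoter windows of this length, 7.92% hold the POU1F1 motif, 4.08% the NR5A1 motif, 6.25% the PITX and OTX motif and 12.4% TATAAA, on either strand. The NR5A1 motif matched in Pomc at 63 to 57 and in Lhb at 129 to 123 bases before the start. TATAAA lay close to the start in all 6 hormone genes with an entry, whether their signal was lower or too dim, at 30 to 25 bases before it in Cga and Fshb, 25 to 20 in Pomc, 24 to 19 in Prl, 27 to 22 in Tshb and 31 to 26 in Lhb. In Prl and in the far end of the Tshb window it overlaps its own reverse, TTTATA. The PITX and OTX motif was in none of the members' windows. These matches describe letters in a window and do not show binding.

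The transcription factors of these lineages could be followed only in part, mostly through factors that other tissues use too. Of 15 listed factors 8 were measured, and 0 of the 8 were beyond 1.5-fold in either direction, with a median log2 difference of -0.11. Across all measured genes 3.24% were 1.5-fold lower and 3.07% were 1.5-fold higher. The brightest were Neurod1, a factor of corticotrophs and of cortical neurons, at 2160 and 1749 (-0.28, and -0.53 by its other probe set), and Isl1 at 1073 and 864 (-0.29, and 0.055 by its other probe set). The largest difference among the measured ones was that of Foxl2, a gonadotroph and thyrotroph factor, at 395 and 269 (-0.54). Pitx1, a factor of the whole pituitary primordium and of other oral ectoderm, gave 299 and 354 (0.26). Gata2, of thyrotrophs and gonadotrophs, gave 576 and 548 (-0.053, but 0.53 by its other probe set). Otx2 gave 523 and 509 (-0.021), and Pax7, the melanotroph factor, 214 and 189 (-0.17). Many of these factors are used outside the pituitary as well, Neurod1, Isl1 and Otx2 in the brain and Pax7 in muscle.

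Other listed factors with roles in these lineages were below the median of both arrays. They were named after their values were seen. Lhx3 gave 153 (wild type) and 106 (null), Lhx4 gave 70.0 and 25.5, and Hesx1 gave 77.1 and 51.1. Tbx19, which activates Pomc in corticotrophs, gave 88.2 and 111, and Nr5a1, the gonadotroph factor, 99.6 and 115. Lhx3, Lhx4 and Hesx1 were lower and Tbx19 and Nr5a1 higher in the null library, all at levels where the differences of other genes spread widely.

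Receptors by which the pituitary is controlled could be followed only in part. Of 8 receptor genes 3 were measured and 0 of them were beyond 1.5-fold, with a median of -0.18. The shares over all measured genes were 3.24% at 1.5-fold lower and 3.07% at 1.5-fold higher, so a count of 0 among 3 is near the background. Crhr1, the corticotroph receptor for corticotropin-releasing hormone, gave 398 and 346 (-0.18), and the somatostatin receptor Sstr2 gave 337 and 289 (-0.21). The dopamine receptor Drd2 gave 181 and 159 (-0.17). All 3 are expressed in brain too. The receptors Gnrhr (56.3 and 92.3) and Trhr (71.5 and 76.3), named after their values were seen, were below the median of both arrays.

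Genes for the processing and storage of peptide hormones are shared by neurons and hormone cells. Of 10 listed genes 9 had a probe set and 8 were measured, 0 of them beyond 1.5-fold, with a median of -0.037. The brightest, carboxypeptidase E (Cpe), gave 12492 and 12174 (-0.017), and Scg5, a chaperone of the prohormone convertase PC2, gave 2574 and 1702 (-0.58), just inside 1.5-fold. Pcsk1, the convertase that cleaves Pomc to ACTH, gave 88.0 and 48.4 and was not measured. Over the 3 groups of factors, receptors and processing genes, 19 of 33 listed genes were measured, 0 were 1.5-fold lower and 0 were 1.5-fold higher, with a median of -0.098. Against shares of 3.24% and 3.07% over all measured genes, a count of 0 among 19 is near the background. Scg5 or Foxl2 passed the 1.5-fold line under some other settings.

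Of 16 listed hypothalamic genes 8 were measured, 6 of them above the median of both arrays, and 2 were 1.5-fold lower and 0 higher, with a median of -0.16. The shares over all measured genes were 3.24% lower and 3.07% higher. Crh, the releasing hormone of corticotrophs, gave 245 and 147 (-0.72), and galanin (Gal) gave 227 and 143 (-0.65). Both were above the median on the wild-type array alone. Crh is also made by cortical interneurons. Oxytocin (Oxt) gave 841 and 1027 (0.31), vasopressin (Avp) 344 and 321 (-0.078), and hypocretin (Hcrt) 251 and 262 (0.083). Of the genes through which pituitary hormones act on their targets, 4 of 10 were measured and 0 were beyond 1.5-fold, with a median of -0.063. The growth hormone effector Igf1 gave 3451 and 4103 (0.27), and Socs2, a feedback inhibitor of the growth hormone receptor, 1639 and 1496 (-0.11). The growth hormone receptor Ghr gave 1570 and 1535 (-0.013), but its 2 other measured probe sets had a mean difference of 1.02. The opioid precursor Penk, a relative of Pomc expressed in brain, gave 2504 and 2627 (0.089).

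Genes of several other tissues outside the brain were lower in the null library along with Gh, Pomc and Cga, and their part in the result was not tested. Over all measured genes 3.24% were 1.5-fold lower and 3.07% higher. In epidermis 5 of 8 listed genes were 1.5-fold lower and 0 were higher, and their summed signal was 39895 (wild type) and 21419 (null). The 3 brightest, Lor (10784 and 6581), Krt10 (10189 and 3229) and Krt1 (9172 and 3465), were all lower. Krt5 (4461 and 4737), Krt14 (3062 and 2303) and Trp63 (802 and 746), genes of the basal layer, were within 1.5-fold. In lens 7 of 8 were lower (summed signal 28568 and 17608), with Cryba1 at 8494 and 5275. Cryaa (7001 and 4653, -0.57) was just within 1.5-fold. In salivary and lacrimal glands 4 of 6 were lower (65532 and 36039), with Dcpp3 at 16907 and 3674. The brightest of that list, Bpifa2 (21963 and 17131) and Smgc (17176 and 12281), were within 1.5-fold. In tooth and bone 3 of 4 measured genes were lower (11724 and 10373), Ambn, Amelx and Dspp. Ibsp gave 7576 and 7860 (0.073, and 0.65 by its other probe set). Some genes counted as lower passed the filter through the wild-type array alone. They were Ivl in epidermis (295 and 105), Dcpp1 in glands (179 and 78.4), Bfsp1 in lens (251 and 160) and Dspp (202 and 102). By contrast 0 of 9 skeletal muscle genes were beyond 1.5-fold (summed signal 124137 and 125878, with Tnnc2 at 22674 and 22146). Of 6 measured cortical neuron genes 0 were beyond 1.5-fold (7810 and 7325), but Eomes lay at the line (0.58, and 1.25 by its other probe set), and Neurod2 was at -0.16 with -0.85 by its other probe set. The liver markers Alb (125 and 80.3) and Afp (10.4 and 9.33) were below the median of both arrays, 1 of 5 liver genes was measured (Ttr, which the choroid plexus also makes) and Ttr was within 1.5-fold. Of 3 erythroid genes 2 were measured and 0 were beyond 1.5-fold, but Slc4a1 was at -0.20 with 0.64 by its other probe set. The list medians were -1.04 in epidermis, -1.13 in glands, -0.69 in lens, -0.70 in tooth and bone, 0.099 in muscle and -0.11 in cortical neurons. The 3 hormone genes lay in the range of the epidermal and gland lists.

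**Figure D3:**
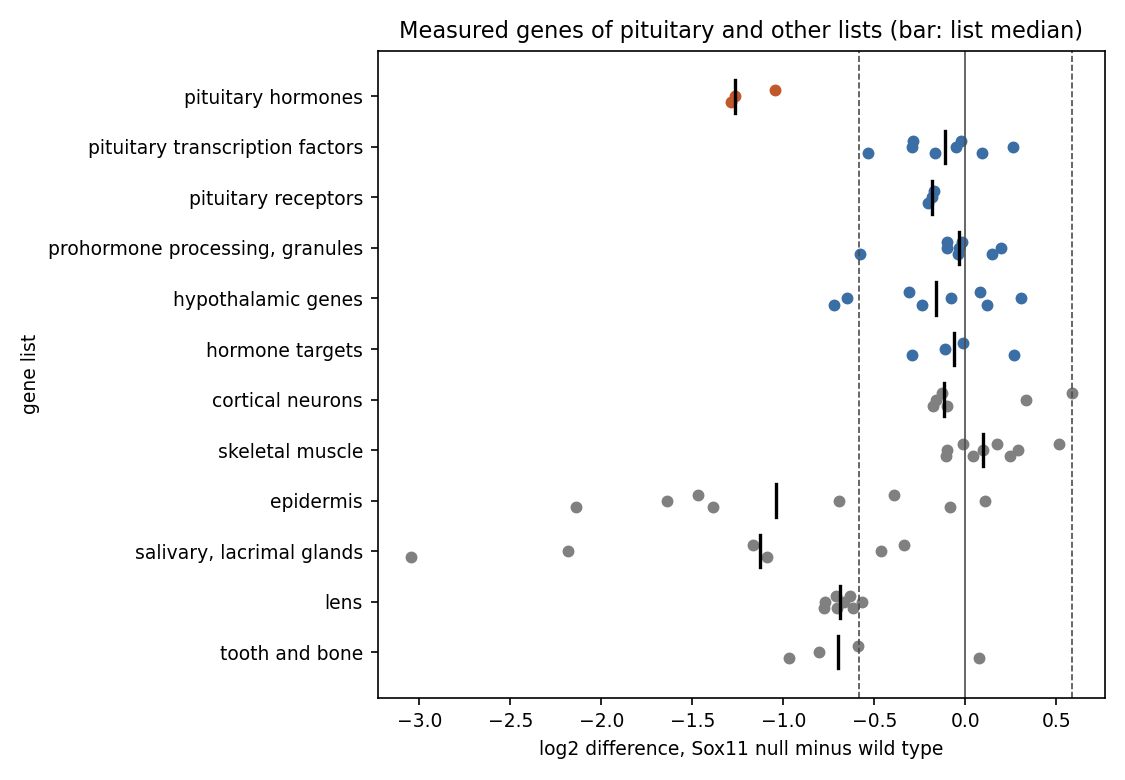
Log2 difference (Sox11 null minus wild type) of the measured genes of 12 gene lists, with a bar at each list's median and dashed lines at 1.5-fold. The 3 pituitary hormones lie between -1.29 and -1.05, the pituitary factor, receptor and processing lists lie inside the dashed lines, and epidermis, gland, lens and tooth genes extend to the left.

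The genes nearest to the 3 hormones in the plane of the 2 log2 signals were found over these 2 arrays, so likeness here means a similar level and difference in 1 pair of libraries. Only measured genes with a standard symbol were searched, passing over clone-based, predicted and accession-type names. Nearest to Gh were Calm4 (5086 and 1842, at a distance of 0.15 log2 units), Rhoc (4119 and 2285, 0.32) and Pip (5112 and 2374, 0.36). For Cga they were Krt28 (341 and 140, 0.018), Krt35 (376 and 134, 0.14) and Wfdc21 (314 and 130, 0.16). For Pomc they were Pof1b (649 and 302, 0.052), Pla2g6 (601 and 294, 0.065) and Lce1m (597 and 311, 0.090).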

How the data were processed

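Total RNA from 1 embryo per genotype was turned into biotinylated cRNA, per the labels' protocols. The authors deposited linear signal intensities, 1 for each probe set on each array. The submitters' processing notes name Affymetrix Expression Console. For the algorithm that summarised the probes, and for filters, the sources used here give nothing. The mean trimmed by 2% at each end was 500.002 on both arrays, as scaling to a common target gives, and such scaling leaves differences that depend on intensity in place. Precision is limited by the number of arrays.

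Of 45101 probe sets, 64 controls were left out and 34945 name 1 gene in the platform annotation. A RefSeq table (GRCm38.p6) gave current symbols, by gene number, for 34741. The probe set brightest on average (log2) stood for each gene. Null signals were shifted by 0.020 log2 units to a median difference of 0 over measured genes. Folds against values below the array's 25th percentile used that percentile as a floor, and none is given where both were below it. Differences were described at 1.5-fold and 2-fold without a test. The code was tested on simulated data. Python 3.11.15, pandas 2.3.3 and statsmodels 0.14.6 were used.

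The genes named are all probe sets of the members, listed genes beyond 1.5-fold or the brightest of each list, some of the brightest markers and the 3 nearest genes. Others were chosen after their values were seen, and some listed genes are not reported here. Members and lists were chosen with earlier results of these data known. Alternatives to floor, centring, filter, probe set choice and fold were run.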

Additional observations from a re-analysis of the deposited data

How the results depend on the processing

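The count of hormone genes at least 1.5-fold lower was 3 (Gh, Pomc and Cga), against 3.24% of all measured genes in the main setting. It stayed at 3 in 9 of 10 alternatives, and it was 2 with the filter at the 75th percentile, which leaves out Cga. All settings used the same 2 arrays and genes listed with this contrast known, so the stable count is no added support. The log2 difference ran from -1.34 to -1.24 for Gh, from -1.18 to -1.04 for Pomc and from -1.32 to -0.93 for Cga, the smallest for Cga with the floor at the array median. With no filter on low values 1 hormone gene, Tshb, was 1.5-fold higher (0.99), and of the other pituitary genes 1 was 1.5-fold lower (Pcsk1) and 1 higher (Gnrhr), because dim genes then enter. The other pituitary genes had 1 lower gene, against 0, with no centring (Scg5), with quantile normalization (Foxl2), with all probe sets averaged (Scg5) and with the _s_at and _x_at probe sets left out (Scg5). Both genes lie close to the 1.5-fold line. No paired analysis was possible because each genotype has 1 array. With no replicates none could be left out. Signal over background limits Prl, Tshb, Lhb, Fshb and Ghrhr, which were below both array medians.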
